A study of Rattus norvegicus with 31 samples.

Results

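The genes described here were taken by name, and most code for core proteins of the spliceosome. Taken was every row of the RefSeq heart table whose symbol begins with Snrp, Lsm, Sf3a, Sf3b or Prpf followed by its letters or number. U2af1 and U2af2 were taken as well. This gave 51 of 19100 RefSeq genes. The names also take in genes with other roles, among them Lsm1, Lsm10, Lsm11 and Lsm14a, which stay in all counts of members. In the table of 46063 genes that the authors assembled from their reads, 33 of the 51 had an assembled gene with that name alone, 10 were found only inside an assembled gene that carries several names (Lsm2, Lsm8, Lsm11, Prpf31, Prpf39, Sf3b4, Snrpa, Snrpc, Snrpn and U2af1), and 8 had none (Lsm10, Lsm12, Lsm14a, Prpf40b, Sf3b5, Snrpa1, Snrpep2 and U2af2). The genes were chosen by name, but the group was put forward with the values of Snrpd3 in SHR against BN-Lx and in HXB against BXH in view. It was thus in part selected on those values, so all values of Snrpd3 are given as a description without a test, and Snrpd3 is left out of every count of called genes.

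RNA came from the left ventricle of untreated male rats, naive to alcohol and drugs. The progenitor strains were BN-Lx/Cub, with 4 libraries, and SHR/OlaIpcv, the spontaneously hypertensive rat, with 4 libraries of the same sequencing batch. The recombinant inbred strains, bred from both progenitors in reciprocal crosses and then inbred, were 12 HXB strains with the substrain code Ipcv and 9 BXH strains with the code Cub, each with 1 library, in sequencing batches 2 and 3. HXB and BXH differ in this code as well as in the direction of the cross, and these cannot be told apart. In bulk RNA of a tissue, fewer cells of a type and less RNA per cell cannot be told apart either.

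The spliceosome removes introns from pre-mRNA. It is built from small nuclear RNAs and proteins: Sm proteins close a ring around the U1, U2, U4 and U5 RNAs, related LSm proteins close a ring around U6, U1 finds the start of an intron, U2 with its SF3A and SF3B proteins holds the branch point, and U2AF reads the end of the intron. Prpf proteins belong to U1, to the U4/U6.U5 particle or to the active core. Splicing is needed in every cell type of the ventricle, cardiomyocytes, endothelium, fibroblasts and others, so no member marks a cell type. Snrpd3 codes for SmD3, which enters the ring paired with SmB, the product of Snrpb. SmD1 pairs with SmD2, and SmE, SmF and SmG enter together.

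The promoters of Snrpd3 and of Snrpf, the member whose level followed Snrpd3 most closely over the strains, are printed from RefSeq, 250 bases before to 50 bases after the start, on build GRCr8, with capitals for the motifs found, which are CCAAT boxes on either strand (CCAAT or ATTGG) and in Snrpd3 also TGCGCA. Both genes lie on the minus strand, Snrpd3 at chr20:13144871-13145170 and Snrpf at chr7:30024113-30024412.
Snrpd3: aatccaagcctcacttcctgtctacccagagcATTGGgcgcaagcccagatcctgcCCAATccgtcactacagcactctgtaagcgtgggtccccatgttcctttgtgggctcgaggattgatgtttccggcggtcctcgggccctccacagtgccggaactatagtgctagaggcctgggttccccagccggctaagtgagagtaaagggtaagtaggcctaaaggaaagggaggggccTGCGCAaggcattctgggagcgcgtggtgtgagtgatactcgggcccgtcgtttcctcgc
Snrpf: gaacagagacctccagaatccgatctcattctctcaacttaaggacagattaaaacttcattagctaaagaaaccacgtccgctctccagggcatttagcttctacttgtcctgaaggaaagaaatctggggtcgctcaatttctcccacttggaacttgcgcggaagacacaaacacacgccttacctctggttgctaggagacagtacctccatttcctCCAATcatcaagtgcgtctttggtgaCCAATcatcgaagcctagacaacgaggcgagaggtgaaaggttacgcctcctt

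Each of these promoters held 2 CCAAT boxes, and that of Snrpd3 also held TGCGCA, a half-site of the factor NRF1. Promoters were found for 44 of the 51 genes and compared with 27457 promoters of the same length, counting a motif on either strand. A CCAAT box occurred in 18 of the 44 (40.9%) against 37.7% of all promoters, which is close. CCGGAAG, the core bound by ETS factors, occurred in 14 of 44 (31.8%) against 9.22% of all, among them Snrpb, Snrpd1, Snrpe and Snrpg of the Sm ring, but not Snrpd3, Snrpd2 or Snrpf. TGCGCA likewise occurred in 14 of 44 (31.8%) against 7.68%, among them Snrpd2 and Snrpd3, and the GC box GGGCGG in 22 (50%) against 34.9%. TATAAA occurred only in the promoter of Snrpg among the 44 (2.27%) against 14.3% of all. The E-box CACGTG was found in 3 (6.82%) against 6.65%. The median GC content was 57.7% in the members' promoters and 52.3% in all. The motifs were chosen with the data known, and a match of letters is a description and not a site in use.

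All values are log2 levels as deposited. Library medians ran from 7.89 to 7.95 in the RefSeq table of the 21 strains, and in the assembled table from 3.99 (BXH8) to 4.59 (HXB20) in the 21 strains and from 4.29 to 4.46 in the progenitor libraries. Besides, 2 features of the libraries were not part of the strain labels. Of these the first moves with both comparisons, and the second lies within BN-Lx. First, the mean log2 level of the added spike-in RNAs was 6.82 ± 0.12 (SD, n = 12) in HXB and 7.37 ± 0.37 (SD, n = 9) in BXH (exact permutation test, two-sided, p = 0.00033), with BXH5 (6.78) and BXH6 (6.84) inside the HXB range of 6.63 to 7.01 and the other BXH strains above it. It was 6.70 ± 0.22 (SD, n = 4) in SHR and 7.37 ± 0.37 (SD, n = 4) in BN-Lx (exact permutation test, two-sided, p = 0.029, the smallest this design allows). Second, the BN-Lx libraries split into replicates 1 and 3 and replicates 2 and 4: both of the first pair were below both of the second in 9 of 33 member genes and above in 14, against 21.5% and 22.2% of all assembled genes.

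Snrpd3 was higher in SHR than in BN-Lx and higher in HXB than in BXH. In the assembled table its log2 level was 7.82, 8.60, 7.90 and 8.53 in BN-Lx replicates 1 to 4 and 9.20, 9.02, 9.08 and 9.004 in the SHR replicates, so that every SHR library lay above every BN-Lx library, and BN-Lx replicates 1 and 3 were the lowest. The difference of the means was 0.86 (8.21 ± 0.41 against 9.08 ± 0.09, SD, n = 4 each). Without BN-Lx replicates 1 and 3 it was 0.51. In the RefSeq table Snrpd3 ran from 8.13 through a median of 8.46 to 8.69 in the BXH strains and from 8.87 through 9.09 to 9.41 in the HXB strains. The groups did not overlap: the highest BXH strain, BXH12, was 0.19 below the lowest HXB strain, HXB29. Such a split occurred in 39 of the 19100 RefSeq genes (0.204%). The fitted difference HXB minus BXH was 0.65 (SE 0.07) on the log2 scale. It was 0.64 within batch 3 and 0.68 within batch 2, and 0.60 with the spike-in level as a covariate. In 2 later libraries of the SHR animal with replicate number 4, Snrpd3 was at 8.96 in both, inside the HXB range of the RefSeq table. In the assembled table a later library of this animal was at 8.61, against 9.004 in batch 1. That lies below the HXB strains of the assembled table (8.67 to 9.25) and inside their BXH range (8.02 to 8.72). The levels of Snrpd3 in SHR against BN-Lx and in HXB against BXH are the values on which the group of genes was put forward.

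**Figure D1:**
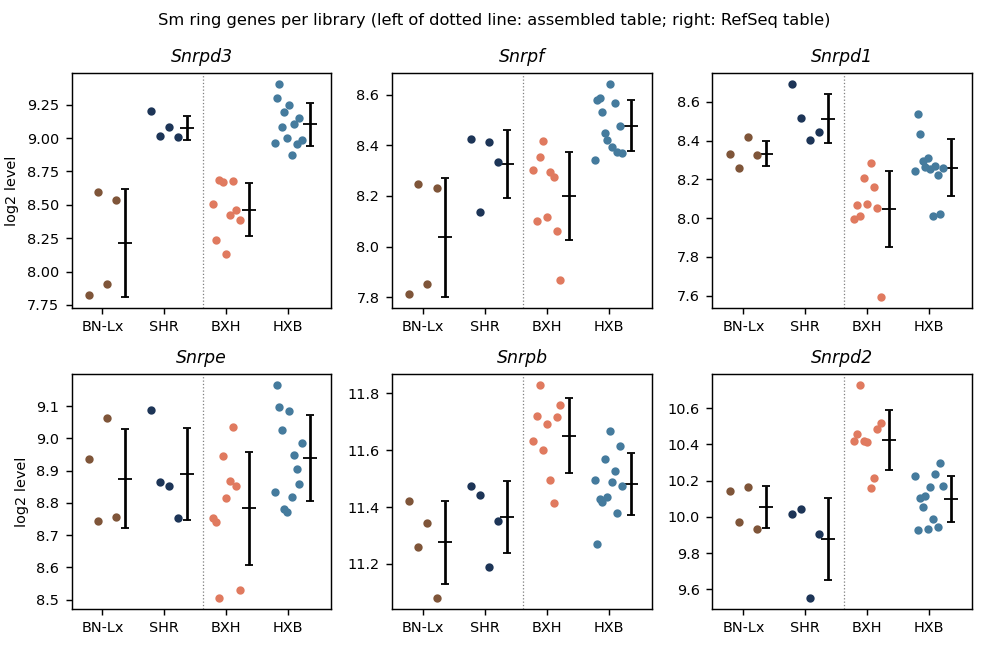
Log2 level of 6 Sm ring genes in each library (points), with the mean and SD of each group (black): BN-Lx and SHR from the assembled table on the left of each panel, BXH and HXB from the RefSeq table on the right, so levels should not be compared across the dotted line. Snrpd3 separates both pairs of groups, with the 4 SHR libraries between 9.004 and 9.20 and the 12 HXB strains at 8.87 or above; for Snrpb and Snrpd2 the BXH strains are the higher family.

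Snrpd3 was also counted with other annotations. In the assembled table the HXB strains ran from 8.67 to 9.25 and the BXH strains from 8.02 to 8.72, which left an overlap at the edge, and in an Ensembl table of an earlier version from 8.52 to 9.07 and from 7.79 to 8.37. Over the 21 strains the Spearman correlation with the RefSeq values was 0.98 for the assembled and 0.99 for the Ensembl values. These tables count the same reads. On build rn7 the assembled Snrpd3 gene lies on chromosome 20 from 13130148 to 13145496, on the minus strand, with 4 exons in 1 transcript of 651 bases. Its neighbours are given for comparison, first between the progenitors. Gucd1 starts 0.1 kb away on the other strand and was at 11.28 ± 0.19 in BN-Lx and 11.34 ± 0.12 in SHR (SD, n = 4 each, limma adjusted p = 0.70). Ggt1, in an assembled gene with a second name 33.6 kb away, differed by 0.12 (limma adjusted p = 0.63). Lrrc75b has 2 assembled genes. The one 19.6 kb away was at 4.54, 4.99, 4.16 and 4.97 in BN-Lx and at 5.10, 5.30, 5.34 and 5.32 in SHR, which do not overlap (difference 0.60, limma adjusted p = 0.10). The one 12 kb away differed by 0.28 (limma adjusted p = 0.17), and by 0.51 without BN-Lx replicates 1 and 3 (limma adjusted p = 0.015). Farther off, Upb1, an enzyme of pyrimidine breakdown 71.8 kb away, fell by 1.56 in SHR (limma adjusted p = 0.019). Adora2a, an adenosine receptor gene 170.3 kb away, rose by 0.44 (limma adjusted p = 0.0045). Between the families, with assembled genes, the neighbours gave negative differences HXB minus BXH, where Snrpd3 gave 0.58. They were -0.29 for Gucd1 (limma adjusted p = 0.015), -0.36 for Ggt1 (0.052), -0.90 for Upb1 (0.017) and -0.47 for Adora2a (0.0014). Lrrc75b gave -0.16 (0.44) for the gene 19.6 kb away and -0.30 (0.0092) for that 12 kb away.

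Between the families, 13 of the other 50 member genes were higher in HXB and 10 were lower at an adjusted p under 0.05 (limma, batch as a term), where 36.3% of all RefSeq genes were called (18.5% higher and 17.8% lower). The share of members called is thus not far above that of all genes, and the members moved in both directions: their median difference was 0.02 against -0.01 for all genes, and the median size of the difference was 0.15 against 0.13. Among genes with a mean of at least 6, 24 of 47 members were called, against 51.1% of all such genes. None of the other 50 separated the families without overlap. All these calls were lost when the spike-in level of the library entered the fit: limma then called 0 of 19100 genes, with 2006 genes and 6 of the 50 members at an unadjusted p under 0.05. The fitted differences also fell in size, from 0.58 to 0.35 for Prpf39, from 0.53 to 0.28 for Prpf4b, from 0.33 to 0.14 for Prpf18 and from -0.18 to -0.04 for Snrpb. Spike-in level and family overlap so little that this fit has few strains to separate them, and the part of the spike-in level in the calls was otherwise not tested.

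Within the Sm ring, 3 of the other 7 genes were higher in HXB and 2 were lower, and genes of partner proteins moved apart. Snrpf, which codes for SmF, ran from 7.87 through 8.28 to 8.42 in BXH and from 8.34 through 8.46 to 8.64 in HXB, and its difference was 0.29 (SE 0.06, limma adjusted p = 0.00082). The 2 ranges overlap by only 0.08. Snrpd1, for SmD1, was 0.22 higher in HXB (SE 0.07, limma adjusted p = 0.019), whereas Snrpd2, for its partner SmD2, ran from 10.16 through 10.42 to 10.73 in BXH and from 9.93 through 10.11 to 10.29 in HXB, a difference of -0.34 (SE 0.06, limma adjusted p = 0.00049). The BXH strains were thus the higher family for Snrpd2, with an overlap at its lower edge. Snrpb, for SmB, the partner of SmD3, was also lower in HXB, by a difference of -0.18 (SE 0.05, limma adjusted p = 0.0091), although Snrpd3 was higher. Snrpe, for SmE, was higher by 0.17 (SE 0.06, limma adjusted p = 0.033), a call lost under 6 of 10 alternatives, among them the fit without a batch term. With the assembled genes Snrpe was at 0.0021 (limma adjusted p = 0.98), and neither Snrpd1 (0.04) nor Snrpf (0.14) was called. Snrpg, for SmG, gave -0.15 (limma adjusted p = 0.082), and Snrpn, an imprinted relative of Snrpb known for its expression in brain, gave 0.09 at a low level (limma adjusted p = 0.55). Snrpel1 and Snrpep2 carry names of copies of Snrpe. Their differences were 0.14 and 0.01, neither called, and reads shared with Snrpe make all 3 values uncertain.

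**Figure D2:**
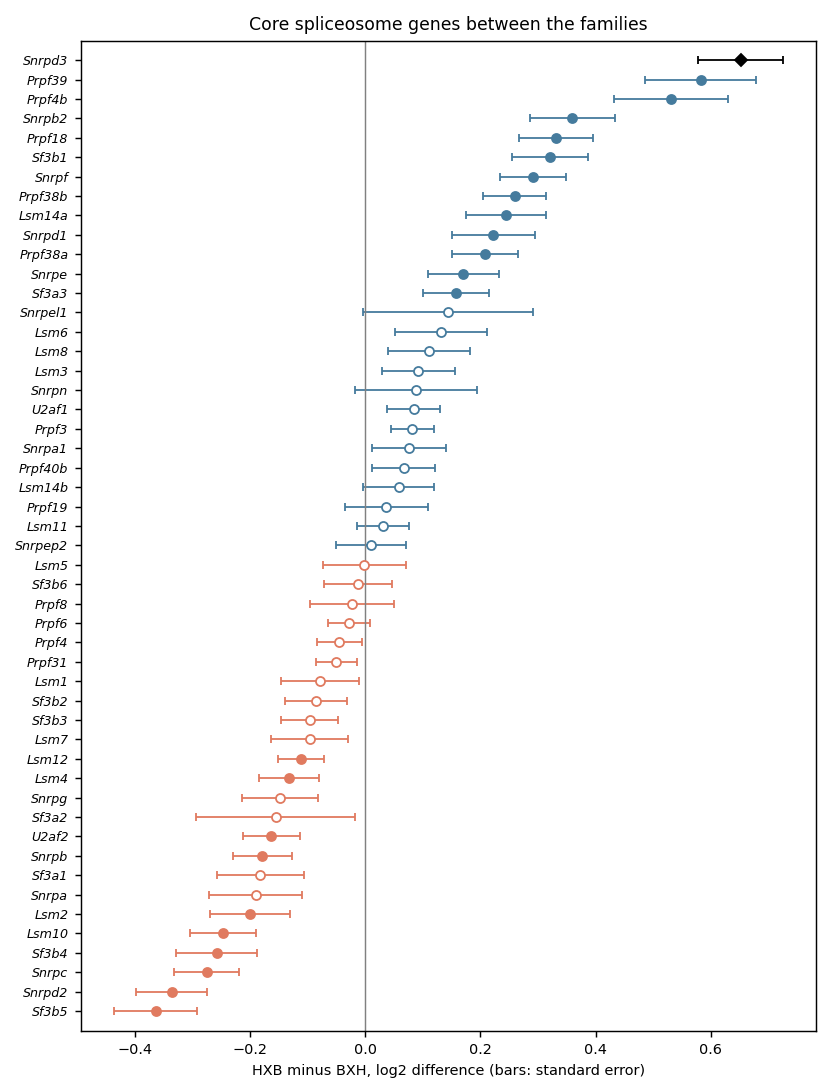
Difference HXB minus BXH of 50 of the 51 genes on the log2 scale, with its standard error, ordered by size. Filled circles are genes at an adjusted p under 0.05, open circles are not, and the diamond is Snrpd3, which was not tested; filled circles lie on both sides of 0, with Prpf39 (0.58) and Prpf4b (0.53) at the upper end and Sf3b5 (-0.36) and Snrpd2 (-0.34) at the lower.

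Of the U1 proteins, Snrpc, for the protein that helps U1 hold the start of the intron, differed by -0.28 (SE 0.06, limma adjusted p = 0.0011), and Snrpa, for a protein bound to a loop of U1 RNA, by -0.19 (limma adjusted p = 0.070). Of the 11 genes of U2 proteins, 3 were higher in HXB and 2 were lower. The largest rise was in Snrpb2, for a U2 RNA-binding protein, which ran from 7.77 through 8.10 to 8.37 in BXH and from 8.15 through 8.49 to 8.71 in HXB (difference 0.36, SE 0.07, limma adjusted p = 0.00098). Sf3b1, whose product holds the branch point, was higher by 0.32 (SE 0.07, limma adjusted p = 0.00096). Sf3a3 was higher by 0.16 (SE 0.06, limma adjusted p = 0.034). With the assembled genes Sf3b1 was at 0.14 (limma adjusted p = 0.076) and Sf3a3 at -0.0077, neither called. Sf3b5 and Sf3b4 code for small subunits of the same SF3B particle and were lower in HXB. Sf3b5 ran from 9.99 through 10.19 to 10.59 in BXH and from 9.55 through 9.89 to 10.20 in HXB (difference -0.36, SE 0.07, limma adjusted p = 0.00077), and Sf3b4 differed by -0.26 (SE 0.07, limma adjusted p = 0.0065). Sf3b6, for another small subunit, was at -0.01 (limma adjusted p = 0.89). U2af2, for the subunit that binds the pyrimidine tract, differed by -0.16 (SE 0.05, limma adjusted p = 0.013), and U2af1, for the subunit that reads the end of the intron, by 0.08 (limma adjusted p = 0.15).

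Of the 13 Prpf genes, 6 were higher in HXB and none was called lower in the RefSeq table. Prpf39, for a U1-associated protein, ran from 8.28 through 8.58 to 8.99 in BXH and from 8.96 through 9.10 to 9.73 in HXB (difference 0.58, SE 0.10, limma adjusted p = 0.00035), with an overlap of 0.02. Prpf4b, for a kinase of the spliceosome, ran from 9.92 through 10.33 to 10.64 in BXH and from 10.52 through 10.76 to 11.32 in HXB (difference 0.53, SE 0.10, limma adjusted p = 0.00057). Prpf18, for a factor of the second splicing step, was higher by 0.33 (SE 0.06). Prpf38b and Prpf38a were higher by 0.26 (SE 0.05) and 0.21 (SE 0.06). Prpf8 (-0.02), Prpf6 (-0.03), Prpf4 (-0.04) and Prpf31 (-0.05), for proteins of the U4/U6.U5 particle, were not called in the RefSeq table. With the assembled genes Prpf4 (-0.21) and Prpf6 (-0.19) were called lower in HXB (limma adjusted p = 0.030 and 0.028), and Prpf8 was at -0.19 (limma adjusted p = 0.094). Prpf38a and Prpf38b were not called there, at 0.05 and 0.09.

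Of the 8 genes of the LSm rings around U6 or in mRNA decay, none was higher and 2 were lower in HXB, Lsm2 (-0.20, SE 0.07, limma adjusted p = 0.027) and Lsm4 (-0.13, SE 0.05, limma adjusted p = 0.048). Lsm1, which belongs to the decay ring alone, differed by -0.08 and Lsm8, which belongs to the U6 ring alone, by 0.11, neither called. Of the 5 other LSm genes, Lsm10, of the U7 particle that processes histone mRNA, was lower (-0.25, SE 0.06, limma adjusted p = 0.0024), but Lsm11 of the same particle was at 0.03. Lsm14a, for a protein of cytoplasmic RNA granules, was higher by 0.25 (SE 0.07, limma adjusted p = 0.0089), and Lsm12 was lower (-0.11, SE 0.04, limma adjusted p = 0.032).

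**Figure D3:**
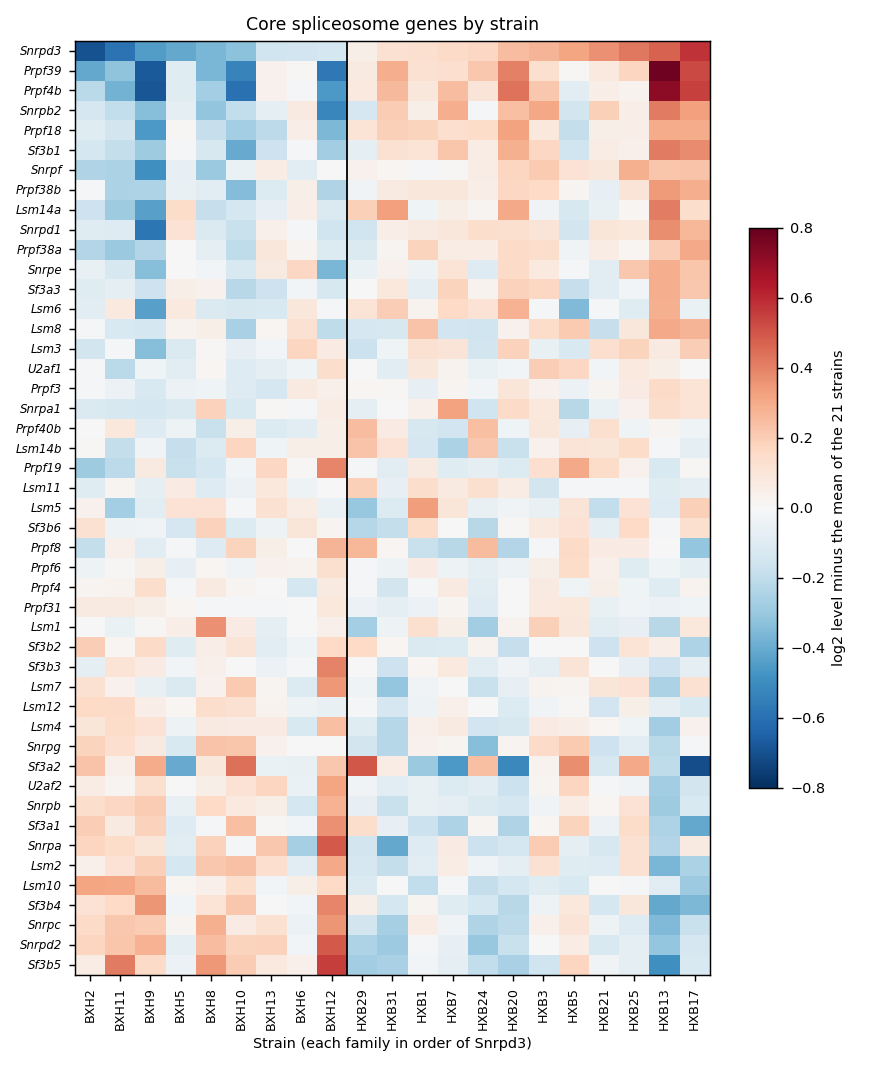
Log2 level of 47 of the 51 genes in each of the 21 strains after subtracting the gene's mean (red above, blue below; the 3 lowest genes, Snrpn, Snrpel1 and Snrpep2, are among those left out). Rows run from the most HXB-high to the most BXH-high difference and columns within each family from low to high Snrpd3; the top rows are blue in most BXH strains and red in most HXB strains, the bottom rows the reverse.

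BXH5 and BXH6 are the BXH strains with a spike-in level in the HXB range. For 18 of the 23 called members (78.3%) the values of both strains lay inside the range of the 12 HXB strains, and for 2, Snrpf and Lsm10, both lay outside. Of all 6940 RefSeq genes called, 78.9% had both strains inside and 3.83% both outside, so the members' share is near that of all called genes. Snrpd2 was at 10.16 in BXH5 and 10.22 in BXH6, against 9.93 to 10.29 in HXB and 10.41 to 10.73 in the other BXH strains. Snrpd3 was at 8.42 and 8.68, below all 12 HXB strains and inside the range of the other BXH strains. The place below HXB was fixed beforehand, as the families do not overlap in Snrpd3 and the group was put forward on those values. It says nothing about the spike-in level. Snrpf was at 8.29 and 8.28, below the lowest HXB strain at 8.34. Over all 21 strains the Spearman correlation with the spike-in level was 0.72 for Snrpd2 and 0.68 for Sf3b5, and -0.57 for Snrpd3 and -0.50 for Snrpf. Within the 12 HXB strains it was 0.18 for Snrpd2 and 0.31 for Snrpd3, and within the 9 BXH strains 0.57 and -0.47. Points share the library and its batch, so these are descriptions. The median size of this correlation was 0.54 over the members and 0.40 over all RefSeq genes.

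**Figure D4:**
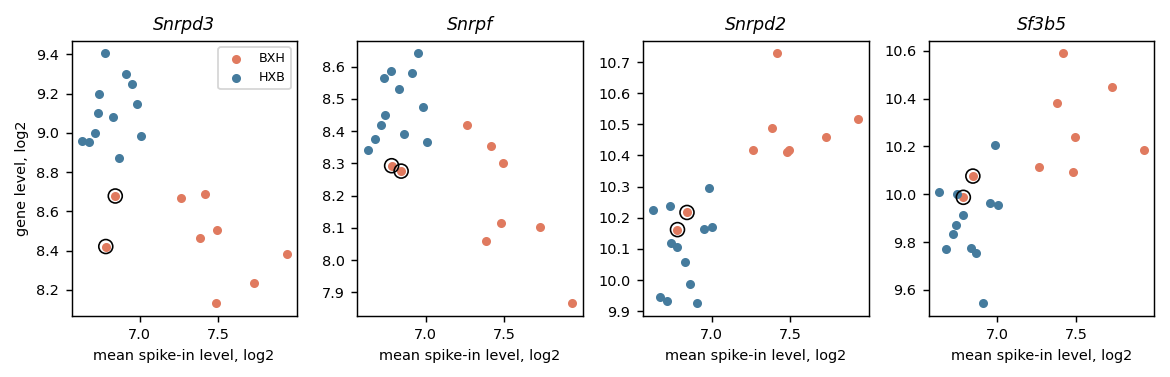
Log2 level of Snrpd3, Snrpf, Snrpd2 and Sf3b5 (vertical) against the mean log2 level of the spike-in RNAs (horizontal) in the 9 BXH and 12 HXB strains, with BXH5 and BXH6 ringed. The ringed strains have a spike-in level in the range of the HXB strains. For Snrpd2, at 10.16 and 10.22, they lie among the HXB strains. For Snrpd3 they lie below all HXB strains, as every BXH strain must, since its families do not overlap.

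Both families were sequenced in both later batches. Within batch 3 (9 HXB and 6 BXH strains), limma called 10 of the 50 members higher and 12 lower, where 35.5% of all genes were called. Within batch 2 (3 strains of each family, with BXH5 and BXH6 among them) limma called 0 of the 50 and 0 of 19100 genes, with 8 members and 1561 genes at an unadjusted p under 0.05. In batch 3 and batch 2 the differences were 0.59 and 0.56 for Prpf39, 0.52 and 0.55 for Prpf4b, and 0.28 and 0.31 for Snrpf. They were farther apart for Snrpd2 (-0.41 and -0.16), Prpf18 (0.38 and 0.21) and Snrpc (-0.33 and -0.15). The counts moved with the annotation. Of the 32 symbols also found in the assembled table, 11 were higher and 3 lower in the RefSeq table, but 3 were higher and 9 lower in the assembled one, where limma called 27.9% of all genes (15.1% higher and 12.8% lower) and the median difference of all genes was 0.11 on the log2 scale. No symbol was called in opposite directions. A limma interaction of family and batch called 0 of 19100 genes and 0 members, with 1476 genes and 1 member at an unadjusted p under 0.05. With 3 strains of each family in batch 2 this fit has little power, so it cannot show that the batches were alike.

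The genes most like Snrpd3 over the 21 strains, by the Spearman correlation after centring within batch, were Mrfap1 (0.91), Snrpf (0.91), Hnrnpa3 (0.90), Tmem167a (0.90) and Gripap1 (0.89). Snrpf was thus at rank 2 of all RefSeq genes. Mrfap1 was one of the 39 genes without overlap between the families, and so was Gripap1. The next members were Prpf39 (0.77, at rank 219) and Prpf4b (0.74, at rank 402), and the strongest opposite one was Lsm10 (-0.75). These values span both families, so the family difference enters them. Within the 12 HXB strains the correlation with Snrpd3 was 0.81 for Snrpf, 0.80 for Hnrnpa3, 0.78 for Mrfap1, 0.62 for Tmem167a and 0.51 for Gripap1. It was 0.22 for Prpf39 and 0.17 for Prpf4b. Within the 9 BXH strains it was 0.55 for Snrpf, 0.57 for Hnrnpa3, 0.37 for Mrfap1, 0.60 for Tmem167a and 0.82 for Gripap1. For Prpf39 it was 0.18 there and for Prpf4b 0.15. Among all pairs of members the median size of the correlation was 0.39, against 0.36 for RefSeq genes with a mean of at least 6.

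The spread of a member over the strains can be set beside that between libraries of 1 animal. After centring within batch, the SD over the 21 strains had a median of 0.16 over the 51 genes and 0.17 over all RefSeq genes. It was largest in Prpf39 (0.37), Snrpd3 (0.37) and Prpf4b (0.35), all at or above percentile 92.8 of all genes, and smallest in Prpf31 (0.06), Prpf6 (0.06) and Prpf4 (0.07), all at or below percentile 2.02. The total range of Prpf31 over the 21 strains was 0.19 on the log2 scale, against 1.45 for Prpf39. The 2 later libraries of SHR replicate 4 differed by a median of 0.07 over the members. Among the 48 members with a mean of at least 6 they differed by at most 0.24. Between batch 1 and a later library of this animal the assembled genes differed by more. The 4 genes called between SHR and BN-Lx, given below, went from 8.42 to 7.77 (Sf3a2), 12.9995 to 12.52 (Prpf8), 11.64 to 11.26 (Sf3b2) and 5.32 to 5.54 (Snrpel1). Batch and library cannot be told apart in these values.

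Mixtures of 1 to 3 normal components of equal variance were fitted to each gene over the 21 strains, to see whether strains fell into levels. A gain in the Bayesian information criterion (BIC) over 1 component was found in 3 of the 51 genes, against 15.6% of all RefSeq genes: Sf3b3 (gain 4.15), Snrpf (0.93) and Lsm4 (0.29). Snrpd3 fell into 1 mode, although the families did not overlap. Only Sf3b3 gained at least 2 (8.47% of all genes). Its levels ran from 11.25 to 11.53 in 20 strains and stood at 11.82 in BXH12, so its second level is 1 strain. The modes depended on the setting. With unequal variance Sf3b3, Snrpf and Lsm4 fell into 1 mode, and Lsm14a, Prpf31, Prpf8 and Sf3b4 into 2. Without centring within batch Sf3b3 kept 2 modes, Snrpf and Lsm4 had 1, and Snrpep2 had 2.

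Between the progenitor strains, 3 of the other 32 assembled member genes were higher in SHR and 1 was lower at an adjusted p under 0.05 (limma), where 14.3% of all assembled genes were called (7.38% higher and 6.95% lower). The ranges of the strains did not overlap in 8 of the 32, against 20.6% of all assembled genes. Both shares are near those of all assembled genes. Among genes with a mean of at least 6, 5 of 30 members were called, against 27.3% of all such genes. At an unadjusted p under 0.05 there were 13 of 32 members and 13239 of 46063 genes. All 4 calls were lost without BN-Lx replicates 1 and 3. There limma called 0 of 32 members, with 4 at an unadjusted p under 0.05, and 7.37% of all assembled genes. The 4 calls were lost as well without BN-Lx replicate 3 alone (0 called, 6 at an unadjusted p under 0.05), where 10.5% of all were called. When BN-Lx replicate 1 or one of SHR replicates 2, 3 and 4 was dropped, 1 or 2 members were called. Of all assembled genes 9.5% to 11.3% were called then, so the share of all genes fell too.

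The largest rise was in Sf3a2, for a subunit of SF3A that joins U2. It was at 7.18, 8.02, 7.35 and 7.95 in BN-Lx replicates 1 to 4 and at 8.32, 8.27, 8.36 and 8.42 in SHR. All SHR libraries were above all BN-Lx libraries, and replicates 1 and 3 of BN-Lx were the lowest, as for Snrpd3 (difference 0.72, SE 0.17, limma adjusted p = 0.016, and 0.36 without those replicates). Prpf8, the core protein of the active site, was at 12.49, 12.80, 12.37 and 12.79 in BN-Lx and at 12.95, 12.89, 13.04 and 12.9995 in SHR, again without overlap (difference 0.36, SE 0.10, limma adjusted p = 0.025, and 0.18 without BN-Lx replicates 1 and 3). Sf3b2, for a large subunit of SF3B, was at 11.47, 11.45, 11.38 and 11.44 in BN-Lx and at 11.73, 11.59, 11.68 and 11.64 in SHR (difference 0.23, SE 0.06, limma adjusted p = 0.033). Its BN-Lx libraries did not split and its difference without replicates 1 and 3 was 0.22, but leaving out any 1 library lost its call. The gene lower in SHR was Snrpel1, with 1 exon and a name of a copy of Snrpe. It was at 6.499, 5.44, 6.42 and 6.25 in BN-Lx and at 5.46, 5.18, 5.04 and 5.32 in SHR, which overlap at BN-Lx replicate 2 (difference -0.90, SE 0.23, limma adjusted p = 0.022). Its call was lost without any 1 of BN-Lx replicates 1, 3 and 4 and SHR replicates 2 and 3, and that of Prpf8 when one of BN-Lx replicates 1 and 3 or of SHR replicates 3 and 4 was dropped.

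**Figure D5:**
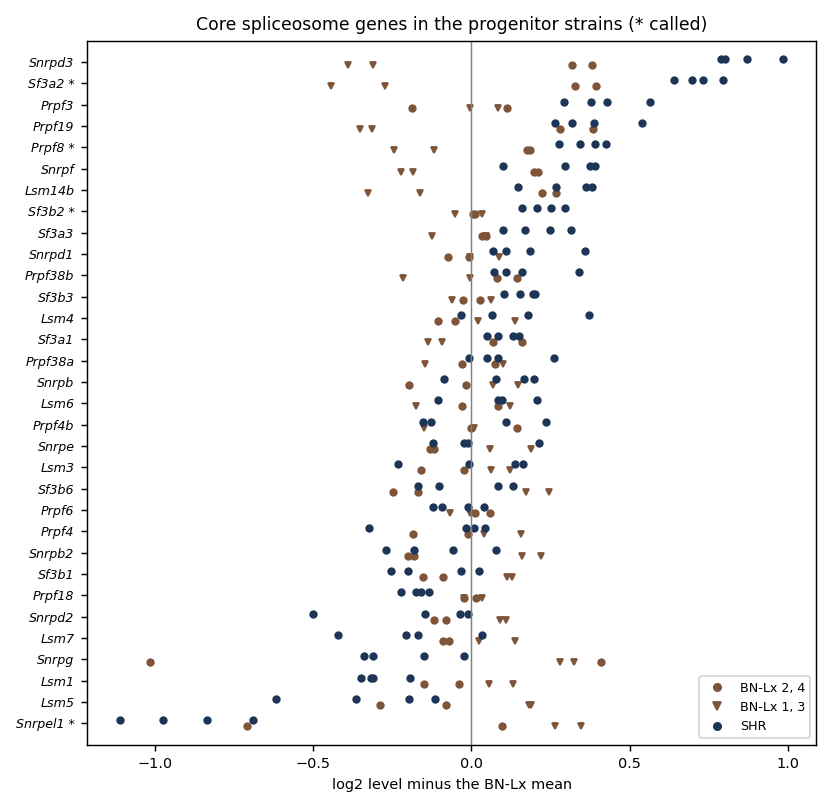
Log2 level of 32 of the 33 assembled member genes in each BN-Lx (brown) and SHR (dark blue) library after subtracting the gene's BN-Lx mean, ordered by the difference; triangles are BN-Lx replicates 1 and 3, and a star marks the 4 genes called (Snrpd3 was not tested). In Snrpd3, Sf3a2, Prpf19, Prpf8 and Snrpf the triangles lie left of the other BN-Lx points, and in Snrpd3 and Sf3a2 all SHR points lie to the right of every BN-Lx point.

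No other gene of the Sm ring was called between the progenitors (0 of 6, with Snrpf alone at an unadjusted p under 0.05). Snrpf was at 7.81, 8.25, 7.85 and 8.23 in BN-Lx and at 8.43, 8.13, 8.41 and 8.33 in SHR, which overlap (difference 0.29, SE 0.13, limma adjusted p = 0.16). Snrpd1 differed by 0.18 (limma adjusted p = 0.25), Snrpb by 0.09 (0.56), Snrpe by 0.02 (0.95) and Snrpd2 by -0.17 (0.33). The assembled gene named Snrpg has 1 exon on chromosome 1, and its level over the strains correlated at -0.26 with the RefSeq gene Snrpg, so it need not be that gene. It was at 6.65, 6.74, 6.61 and 5.31 in BN-Lx and at 6.18, 5.99, 6.30 and 6.02 in SHR (difference -0.21, limma adjusted p = 0.67). For Lsm6 (-0.03) and Prpf3 (0.17, an assembled gene with 2 exons at a mean of 4.94 in BN-Lx) the correlation with the RefSeq gene was as weak. Of the assembled genes of several names, the one with Lsm2, Vars1 and Vwa7 was 0.89 higher in SHR (10.96 ± 0.11 against 11.85 ± 0.11, SD, n = 4 each, limma adjusted p = 1.5e-05), and it still differed by 0.79 without BN-Lx replicates 1 and 3 (limma adjusted p = 0.00051). Which of its genes carries the difference cannot be told from the gene values. That with Bltp3a and Snrpc was 0.26 higher (limma adjusted p = 0.039).

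The sign of the difference was the same in SHR against BN-Lx and in HXB against BXH for 20 of 32 members (62.5%) and for 50.6% of the 12230 symbols found in both tables. Snrpf, at 0.29 in both comparisons, and Snrpd1, at 0.18 and 0.22, had the same sign in both, as did Snrpd2 at -0.17 and -0.34. Sf3a2 did not, with 0.72 between the progenitors and -0.16 between the families, nor did Prpf8, with 0.36 and -0.02. The progenitor values are from the assembled table and the family values from the RefSeq table. With assembled genes in both comparisons the members' share was lower. Prpf19 (-0.13), Lsm6 (-0.12), Lsm14b (-0.11), Lsm3 (-0.07) and Sf3a3 (-0.0077) were then negative between the families and positive between the progenitors. The other members kept the sign of their family difference. The share over all symbols was not computed in this way. With assembled genes the family difference was 0.14 for Snrpf (limma adjusted p = 0.17) and 0.04 for Snrpd1 (limma adjusted p = 0.65), and without BN-Lx replicates 1 and 3 the progenitor difference of Snrpf was 0.09.

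Of 104 assembled transcripts of the 32 other member genes, 1 was higher and 1 was lower in SHR (limma adjusted p under 0.05), where 5.53% of all 91969 transcripts were called (2.72% higher and 2.81% lower). There were 18 at an unadjusted p under 0.05. The lower one is a transcript of Sf3b1 with 22 exons and a length of 5317 bases. It was at 9.66, 9.48, 9.86 and 8.75 in BN-Lx and at 7.70, 7.57, 6.66 and 6.88 in SHR, which is more than 1 log2 unit between the nearest libraries (difference -2.24, SE 0.31, limma adjusted p = 0.0042). It was called under 13 of 15 alternatives, with differences from -3.06 to -1.91. The most abundant transcript of Sf3b1, with 25 exons, was at 12.07 ± 0.19 in BN-Lx and 12.25 ± 0.19 in SHR (SD, n = 4 each, limma adjusted p = 0.47), and the gene as a whole differed by -0.12 (limma adjusted p = 0.42). The higher one is a transcript of Sf3b3 with 26 exons, at 9.92, 9.18, 9.52 and 9.12 in BN-Lx and at 10.14, 10.17, 10.32 and 10.25 in SHR (difference 0.79, SE 0.18, limma adjusted p = 0.041). It was called under 4 of 15 alternatives, and 1 member transcript in place of 2 was called when one of BN-Lx replicates 3 and 4 or of SHR replicates 2, 3 and 4 was dropped. Transcript levels are divided among overlapping models by the authors' software, so they are less certain than gene levels.

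Other spliceosome genes, which do not carry the members' names, were counted from lists, to be read against 18.5% higher and 17.8% lower of all RefSeq genes between the families and 7.38% higher and 6.95% lower of all assembled genes in SHR. Among 29 snRNP and early spliceosome genes, 9 were higher and 2 lower in HXB, led by Luc7l2 (0.49, limma adjusted p = 0.00024) and Luc7l3 (0.60, limma adjusted p = 0.00035), relatives of a yeast U1 protein. In SHR 0 of 20 were higher and 1 was lower, Snrnp35 of the minor spliceosome (-0.61, limma adjusted p = 0.019). Among 32 genes of a list with the complex built on Prpf19, the catalytic helicases and other factors such as Rbmx2 and Eif4a3, 10 were higher and 8 lower in HXB. Snw1 of this list was higher in HXB by 0.39 (limma adjusted p = 0.00035) and in SHR by 0.53 (limma adjusted p = 0.0078). Rbmx2 was higher in HXB by 0.38 (limma adjusted p = 0.00048). In SHR, 2 of 27 were higher and 1 was lower, Syf2 (-0.36, limma adjusted p = 0.015). Of 17 genes listed for the assembly of Sm rings, not all of which act in it alone, 6 were higher and 4 lower in HXB. Among them Tgs1, which modifies the cap of small nuclear RNAs, was at 0.43 (limma adjusted p = 0.00066) and Gemin8 at -0.27 (limma adjusted p = 0.0025). In SHR 1 of 11 was called, Coprs (-0.53, limma adjusted p = 0.027). Of 21 SR proteins and kinases, 13 were higher and 1 was lower in HXB, with Tra2a at 0.61 and Clk4 at 0.62 (limma adjusted p = 0.00031 and 0.00044). Of 21 hnRNP genes measured, 15 were higher and none was lower, with a median difference of 0.27, led by Hnrnpdl (0.50, limma adjusted p = 0.00024) and Hnrnpa1 (0.42, limma adjusted p = 0.00030). In SHR 0 of 15 SR genes were called, with 2 at an unadjusted p under 0.05, and 3 of 18 hnRNP genes were higher, with Hnrnpa1 at 0.43 (limma adjusted p = 0.024), and 1 was lower, Hnrnpr at -0.24 (limma adjusted p = 0.033). Of 11 splicing regulators of muscle, 5 were higher and 1 was lower in HXB, with Khdrbs1 at 0.23 and Ptbp2 at 0.35 (limma adjusted p = 0.00048 and 0.00061). In SHR 2 of 11 were lower, Celf2 (-0.42, limma adjusted p = 0.0015) and Mbnl1 (-0.24, limma adjusted p = 0.041). As for the members, no family call on these lists was left with the spike-in level in the fit.

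The libraries carried the markers of ventricular cardiomyocytes at high levels (mean of the lowest of 8 genes, Ryr2, 16.8). Markers of several cell types were called in the same comparisons, and their part in the members' values was not tested. Between the families, 36.3% of all RefSeq genes were called, and 51.1% of those with a mean of at least 6. Marker counts near or below these shares do not set a cell type apart from other genes. In HXB, 1 of 8 cardiomyocyte markers was higher and 5 were lower, among them Myl3 (-0.47, limma adjusted p = 0.00038) and Mb (-0.31, limma adjusted p = 0.0029). The log2 of the summed levels of the 8 markers ran from 21.4 to 21.9 in HXB and from 21.6 to 21.98 in BXH. All marker sums below are given in this way, so the most abundant marker weighs most. Macrophage markers were lower in 2 of 5, Cd68 (-0.46) and Csf1r (-0.24), with summed levels of 12.2 to 12.6 and 12.4 to 12.7, and mesothelial markers in 2 of 4, Msln (-0.69) and Upk3b (-0.55), with 9.51 to 10.01 and 9.64 to 10.5. Endothelial markers were called in both directions, Kdr at 0.14 and Pecam1 at -0.15, with sums of 14.9 to 15.4 in HXB and 15.2 to 15.6 in BXH. Pericyte and smooth muscle markers were higher in 2 of 6, Myh11 (0.26) and Rgs5 (0.19), with 14.03 to 14.3 and 14.1 to 14.2. No atrial, fibroblast, lymphocyte, erythroid or neuronal marker was called between the families by limma, with 1 of 4, 1 of 5, 2 of 5, 1 of 3 and 0 of 4 at an unadjusted p under 0.05.

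Between the progenitors, 14.3% of all assembled genes were called, and 27.3% of those with a mean of at least 6. In SHR, 4 of 6 endothelial markers were higher and 1 was lower, with Eng at 0.60 and Cdh5 at 0.44. The log2 of the summed levels of the 6 endothelial markers ran from 15.71 to 15.84 against 15.65 to 15.72 in BN-Lx. Pericyte and smooth muscle markers were higher in 3 of 5, Acta2 (0.58) and Abcc9 (0.20) among them, with 14.25 to 14.32 against 14.07 to 14.16. Macrophage markers were lower in 2 of 4, Cd163 (-0.65) and Mrc1 (-0.35), with 11.99 to 12.2 against 12.3 to 12.4, and mesothelial markers in 3 of 4, Upk3b (-1.07) and Msln (-1.04) first, with 9.99 to 10.2 against 10.3 to 10.5. Cardiomyocyte markers were lower in 2 of 6, Tnni3 (-0.47) and Tnnt2 (-0.30), with 20.3 to 20.4 against 20.3 to 20.6. Atrial and fibroblast markers moved both ways, with Myl7 at 1.11 and Myl4 at -0.97, and Col1a1 at 0.45 and Dcn at -0.25. One of 5 lymphocyte markers was higher, Cd8a (0.83), and none of 2 erythroid or 3 neuronal markers was called or at an unadjusted p under 0.05. Among the lowest markers in the RefSeq table were Snap25 of neurons at a mean of 3.45 and Sln of the atria at 4.19, and none was at 0.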

How the data were processed

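Total RNA depleted of ribosomal RNA was sequenced from left ventricle with a stranded kit. The submitters' processing notes name DESeq2, RSEM 1.3.1 and StringTie 1.3.5, besides the aligners HISAT2 2.1.0 and Bowtie2 2.3.4.3 and the trimmer cutadapt 1.9.1, and build rn7. What each did, and the transformation, is not given in the sources used here, and the deposited values are log2 levels without counts, so the depth is unknown.

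The members, gene lists and tests were chosen with earlier results of these data known. Groups are those of the labels. SHR and BN-Lx (batch 1) were compared in the assembled genes and transcripts, HXB and BXH (batches 2 and 3) in the RefSeq genes with batch as a term, by limma 3.58.1 (R 4.3.3, intensity trend, two-sided, Benjamini-Hochberg adjustment over the whole table, threshold 0.05), tested on simulated data. Spike-in RNAs were kept out of the tests. Where several assembled genes had a symbol as their only name, the one with the highest progenitor mean stood for it. Litters are not stated, so p-values reflect only the spread among these rats. Modes were fitted with mclust 6.1.1. The SHR replicate 4 libraries of later batches served only for the technical spread. They were not assigned to batch 2 or 3. Named were Snrpd3, the Sm ring, all called members, members with more than 1 mode, the 3 largest and smallest SDs, the 5 genes and 3 members most like Snrpd3, the 3 nearest named assembled genes on each side of Snrpd3, and the 2 called genes of smallest p in each other list. A called member and a marker gene are counted but not reported here by name. Other members are named for their role, after their values were seen. Promoters came from RefSeq (GRCr8). Python 3.11.15, numpy 2.4.6, pandas 2.3.3, scipy 1.17.1 and matplotlib 3.10.9 were also used.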

Additional observations from a re-analysis of the deposited data

Results flagged for a closer look

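In 52 sets of values of 4 or 9 libraries examined for a single library far from the others, 3 held one, where chance gives about 1 in 20. Snrpd1 in the BXH strains was at 7.59 in BXH9 and between 7.99 and 8.29 in the other 8. Sf3b3 in the BXH strains was at 11.8 in BXH12 and between 11.3 and 11.5 in the others. The assembled gene named Snrpg was at 5.31 in BN-Lx replicate 4 and between 6.61 and 6.74 in the other 3. Without that library its difference between SHR and BN-Lx passed the threshold (limma adjusted p = 0.047).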

How the results depend on the processing

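Leaving out 1 library at a time, between 0 and 4 member genes and between 1 and 2 member transcripts were called between SHR and BN-Lx by limma (4 and 2 with all libraries; unadjusted counts stand in the report). Of all assembled genes 9.5% to 13.3%, and of all transcripts 3.28% to 4.05%, were called then. Of the member genes 0 were called without the intensity trend (5 at an unadjusted p under 0.05) and 0 with all groups in 1 fit (10). Without BN-Lx replicates 1 and 3, a setting chosen after seeing the data, 0 were called (4), and with the spike-in level as a covariate 2. Of all assembled genes 10.7%, 8.5%, 7.37% and 4.01% were called in these 4 settings, against 14.3% in the main fit. Of the member transcripts 0 were called with all groups in 1 fit (19 at an unadjusted p under 0.05) and 1 each with the spike-in level or without BN-Lx replicates 1 and 3. Of all transcripts 1.28%, 0.71% and 2.35% were called there, against 5.53% in the main fit. With the replicate number as a block 3 member genes and 1 member transcript were called, against 11.8% of all genes and 2.06% of all transcripts. The numbers do not pair the samples: deviations of same-numbered libraries correlated at 0.11, -0.17, -0.09 and 0.01, and no library correlated best with its own number. Between the families limma called 0 of 50 members within batch 2 and 0 with the spike-in level (8 and 6 at an unadjusted p under 0.05), and 26 without BXH5 and BXH6, where 40.5% of all genes were called against 36.3% with them. With the assembled genes there were 12 calls among 32 (3 higher and 9 lower), and with the Ensembl genes, chosen after seeing the data, 12 as well (10 higher and 2 lower), against 11 higher and 3 lower of the same 32 symbols with RefSeq genes. Of all genes limma called 27.9%, 38.5% and 36.3% with the assembled, Ensembl and RefSeq genes. With assembled genes the median difference was 0.11 over all and -0.12 over the 32. No symbol was called in opposite directions, and the cause was not tested. Of the members called with RefSeq genes, Sf3a3 changed sign there, at -0.0077. Modes were found in 1 member with the assembled genes and in 1 at a BIC gain of at least 2. The values carry no depth, so the number of animals is the limit that can be stated.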
